A study of Arabidopsis thaliana with 27 samples.

Results

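The comparison of 3 cotyledon libraries treated with 70 µM NAE 18:3 with 3 cotyledon libraries treated with 40 µM NAE 18:2 was made across all genes of the count table, and it takes in 6 of the 27 libraries of the study. The libraries were chosen by the treatment and organ in their labels and by no measured value. The study treated Arabidopsis thaliana seedlings of ecotype Col-0 (written Col-O in the labels), 3 days old and 50 to a dish in 25 mL of dilute Murashige and Skoog medium, and sequenced poly(A)-enriched RNA of cotyledons, roots and whole seedlings. Nothing in the labels names a mutation or transgene in any group. The control group received 0.2% DMSO, the NAE 18:2 group 40 µM NAE 18:2 and the NAE 18:3 group 70 µM NAE 18:3, with 3 libraries in each. The labels give a treatment of 1 h, the study's methods a range of 1 to 3 h, and the series' design text gives 80 µM for NAE 18:3. Because the doses differed, the compound and its concentration cannot be told apart in any difference described here.

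N-acylethanolamines (NAEs) are fatty acid amides of ethanolamine that are abundant in dry seeds and are hydrolyzed or oxidized as seedlings establish. NAE 18:2 carries linoleic acid and NAE 18:3 carries linolenic acid, whose acyl chains differ by a single double bond. Cotyledons are the seed leaves, which expand and green as the seedling passes from stored oil to photosynthesis.

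The labelled organ was checked against marker genes. All 12 cotyledon and leaf markers, among them light-harvesting and Rubisco small subunit genes, passed the filter on low counts. Their summed level was 59462 to 70251 CPM (counts scaled to library size and normalized between libraries) under NAE 18:2 and 73004 to 76221 CPM under NAE 18:3, against 78.5 to 91.0 CPM in DMSO-treated roots. Of 30 root markers, 10 had no more than 3 counts in any of the 9 cotyledon libraries, including PLT1, PLT2, RHD6 and IRT1. PYK10 and SCR were not lower in cotyledons, with means of 3360 and 78.2 CPM in DMSO cotyledons and 3173 and 62.6 CPM in DMSO roots. The other root markers had lower means in DMSO cotyledons than in DMSO roots. Summed over the list, levels were 3240.5 to 3606 CPM in DMSO cotyledons and 4086 to 6346 CPM in DMSO roots. The total count per cotyledon library was 23932702 to 31790342. In bulk tissue, fewer cells of a type and less RNA per cell cannot be told apart. The study's methods call the libraries of a group biological replicates without saying whether they came from separate cultures, so that p-values measure the spread between these libraries.

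NAE 18:3-treated cotyledons held more transcripts of many stress and defense genes than NAE 18:2-treated cotyledons, and fewer transcripts of a smaller set that included cell wall genes. Of 19444 genes tested, 760 were higher under NAE 18:3 (3.91%) and 81 were lower (0.417%) at an adjusted p under 0.01 and a change of more than 2-fold (edgeR quasi-likelihood test, Benjamini-Hochberg adjustment, two-sided). The median log2 fold change of NAE 18:3 over NAE 18:2 was 1.65 over the higher genes and -1.35 over the lower genes, and 238 and 6 of them differed by more than 2 on the log2 scale. The 841 genes called in either direction (4.33%) all had NAE 18:3 and NAE 18:2 libraries that did not overlap in CPM, which was true of 43.8% of all genes tested. A mean of at least 5 CPM over the 6 libraries was reached by 580 of the higher and 55 of the lower genes.

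The counts depended on the libraries in the fit. Leaving out NAE 18:3 replicate 1, 2 or 3 gave 485, 425 and 532 higher and 29, 21 and 46 lower genes, and one fit to all 27 libraries called 171 higher and 6 lower. A gene described below as higher or lower was still called in each of the 9 fits that left out 1 cotyledon library unless the text says otherwise.

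**Figure D1:**
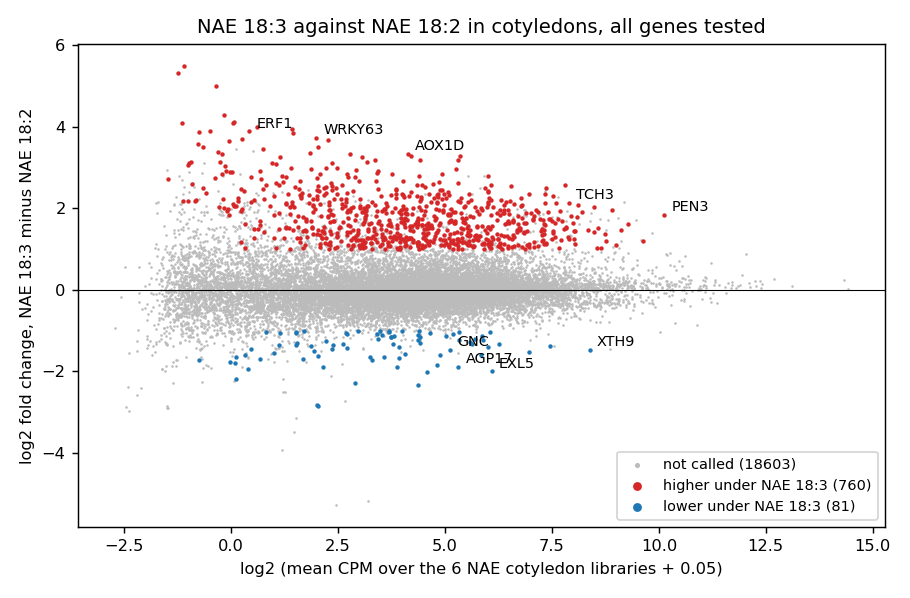
The log2 fold change of NAE 18:3 minus NAE 18:2 in cotyledons is plotted against log2 of the mean CPM plus 0.05 over the 6 NAE libraries, with a point for each of the 19444 genes tested. The 760 genes called higher (red) outnumber the 81 called lower (blue), and gray points are genes not called.

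AOX1D, which encodes an alternative oxidase of the mitochondrial inner membrane, was among the most strongly different genes. It stood at 3.16, 1.32 and 4.87 CPM in the NAE 18:2 libraries and at 42.8, 27.6 and 25.0 CPM in the NAE 18:3 libraries. The groups did not overlap, and the log2 fold change was 3.34 ± 0.41 (SE, adjusted p = 0.00092). No DMSO library had more than 3 counts of it. Against that floor of 3 counts per library, its level was at least 24.3-fold higher under NAE 18:2 and at least 248-fold higher under NAE 18:3.

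CHX17, a cation/H+ exchanger gene, stood at 5.38, 3.33 and 3.63 CPM under NAE 18:2 and at 43.4, 36.3 and 35.7 CPM under NAE 18:3, with 0.700 to 0.759 CPM in DMSO. All 3 groups were separate, and NAE 18:3 exceeded NAE 18:2 by 3.19 ± 0.18 on the log2 scale (adjusted p = 4.3e-05). ACA2, here the alpha carbonic anhydrase 2 gene, went from 6.51, 6.31 and 9.84 to 93.4, 68.7 and 60.9 CPM (3.27 ± 0.32, adjusted p = 0.00032). The UDP-glycosyltransferase gene AT1G05675 stood at 8.87, 4.09 and 9.97 CPM under NAE 18:2 and 70.9, 68.1 and 75.1 CPM under NAE 18:3 (3.2 ± 0.27, adjusted p = 0.00020). Of the same annotated superfamily, AT2G36780 differed by 3.19 ± 0.22 and AT2G36770 by 3.00 ± 0.49, the latter not called in 4 of the 9 fits (adjusted p up to 0.016, without NAE 18:3 replicate 2). LECRKA4.2, a lectin receptor kinase gene, stood at 0.936 to 2.92 CPM under NAE 18:2 and 14.4 to 18.5 CPM under NAE 18:3 (3.14 ± 0.39). The genes AT2G31945 (uncharacterized), SIS (annotated as an RLIM-like ubiquitin ligase) and AT3G04300 (a cupin) differed by 3.27 ± 0.32, 3.12 ± 0.30 and 2.97 ± 0.38. AT5G54165, an Avr9/Cf-9 rapidly elicited protein gene, differed by 3.34 ± 0.39. It is overlapped over 22% of its length by the opposite-strand gene AT5G54170, and since the sources used here do not say whether counting used strand, reads of such a pair cannot be told apart.

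**Figure D2:**
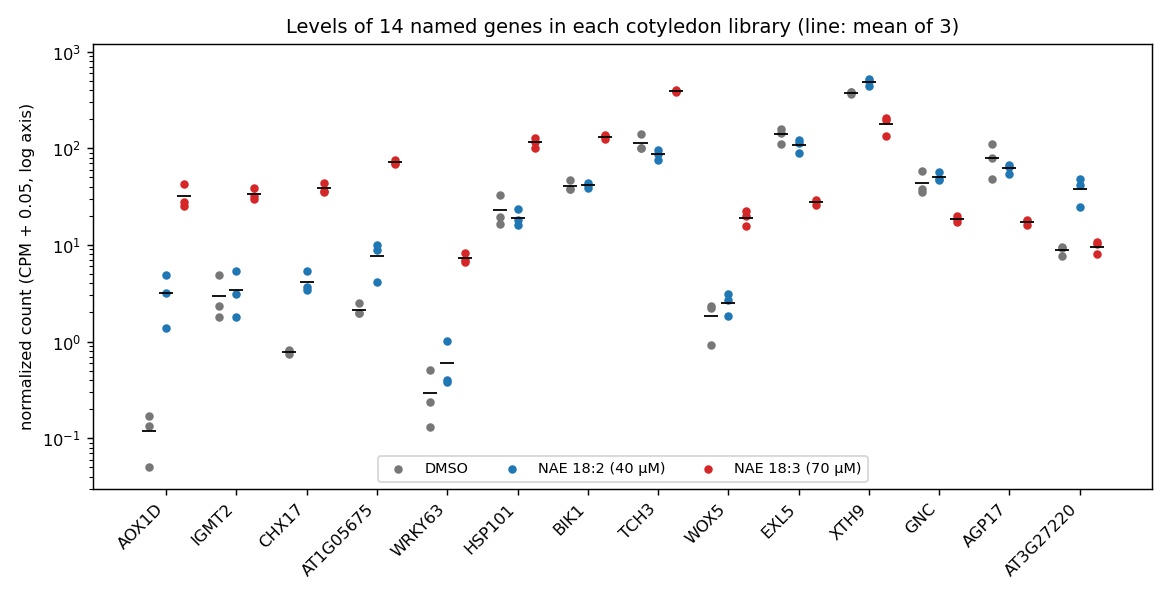
The level of 14 named genes is shown as CPM plus 0.05 on a log axis, with a point for each of the 9 cotyledon libraries and a line at each group mean (gray DMSO, blue 40 µM NAE 18:2, red 70 µM NAE 18:3). For the first 9 genes every red point lies above every blue point, and for the last 5 every red point lies below.

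WRKY transcription factors act in defense and senescence and bind the W-box, TTGACC or TTGACT. Of 49 tested WRKY genes, 17 were higher under NAE 18:3 (34.7%, against 3.91% of all genes tested) and none was lower. Whichever cotyledon library was left out, 13 to 17 were higher. In the fit to all 27 libraries 6 were higher. The median over the list was 0.63 on the log2 scale. WRKY63 (ABO3, AT1G66600) stood at 0.327, 0.347 and 0.975 CPM under NAE 18:2 and at 8.26, 6.64 and 6.97 CPM under NAE 18:3. The groups were far apart, with a log2 fold change of 3.73 ± 0.44 (adjusted p = 0.00071). WRKY51 (2.48 ± 0.35), WRKY75 (2.42 ± 0.29) and WRKY26 (2.36 ± 0.22) followed. WRKY26 was the most abundant of these 4, at 10.4, 7.77 and 12.2 CPM under NAE 18:2 and 50.9, 55.2 and 52.2 CPM under NAE 18:3.

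The W-box was counted on either strand in the bases from 250 before to 50 after each gene's start, in the TAIR10.1 genome with RefSeq gene starts. At least 1 W-box lay in 385 of 760 windows of the higher genes (50.7%), in 21 of 81 of the lower genes (25.9%) and in 6279 of 19343 of all tested genes with a window (32.5%). TTGACC alone was in 25.1% of higher, 9.88% of lower and 14.3% of all windows, and TTGACT in 35.7%, 18.5% and 21.7%. The heat shock element GAANNTTC was in 16.8% of higher and 11.5% of all windows. The G-box CACGTG was in 8.29% and 8.81%, the ABRE core ACGTGG in 11.7% and 10.8%, and the CAMTA motif CGCGTT in 4.61% and 3.84%. The I-box GATAAG was in 17.9% and 14.8%, and the evening element AAAATATCT in 3.68% and 2.99%. The G-box and the ABRE core can share letters. These shares describe letters in a window and carry no test.

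The 250 bases before the start of 4 higher genes are printed to show how W-boxes lie in them, 5′ to 3′ on the gene's strand, with W-boxes on either strand in capitals. The genes were chosen after their values were seen. The windows are those of the receptor-like kinase gene CRK11 (chr4:12143859-12144108, minus strand), the P450 gene CYP81F2 (chr5:23187590-23187839, plus strand), AT1G05675 (chr1:1702750-1702999, minus strand) and AT3G04300 (chr3:1139879-1140128, plus strand) in TAIR10.1, and none overlaps another annotated gene.
CRK11: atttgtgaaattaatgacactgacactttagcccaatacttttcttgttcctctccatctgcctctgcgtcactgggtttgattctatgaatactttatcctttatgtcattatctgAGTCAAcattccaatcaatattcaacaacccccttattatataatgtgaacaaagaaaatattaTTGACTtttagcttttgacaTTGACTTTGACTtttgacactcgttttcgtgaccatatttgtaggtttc
CYP81F2: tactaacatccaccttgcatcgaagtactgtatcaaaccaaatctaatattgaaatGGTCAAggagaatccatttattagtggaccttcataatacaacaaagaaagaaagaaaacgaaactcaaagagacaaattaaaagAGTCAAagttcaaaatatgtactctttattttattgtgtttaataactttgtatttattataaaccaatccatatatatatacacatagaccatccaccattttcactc
AT1G05675: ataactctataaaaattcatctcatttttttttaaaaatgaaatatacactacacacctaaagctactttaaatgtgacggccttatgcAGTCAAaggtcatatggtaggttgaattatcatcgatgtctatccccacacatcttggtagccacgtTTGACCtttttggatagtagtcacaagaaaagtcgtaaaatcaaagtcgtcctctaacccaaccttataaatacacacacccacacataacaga
AT3G04300: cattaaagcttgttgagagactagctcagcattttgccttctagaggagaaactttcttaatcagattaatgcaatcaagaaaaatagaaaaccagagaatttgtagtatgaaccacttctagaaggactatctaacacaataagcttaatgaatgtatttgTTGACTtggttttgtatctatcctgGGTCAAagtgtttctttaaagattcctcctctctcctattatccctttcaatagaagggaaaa
The window of CRK11 holds 4 W-boxes, a pair of them end to end, and the other windows hold 2 each.

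Other stress transcription factor lists held calls in the same direction. No member of the ZAT, stress NAC or ERF and DREB lists was called in the fit to all 27 libraries. ZAT zinc finger genes, known from abiotic stress, were higher in 4 of 8 members (50%, against 3.91% of all genes tested). The count was 2 without NAE 18:2 replicate 1 or NAE 18:3 replicate 1 or 2. ZAT7 stood at 3.05, 3.68 and 3.50 CPM under NAE 18:2 and 15.7, 12.3 and 12.8 CPM under NAE 18:3 (1.96 ± 0.18, adjusted p = 0.00024), and ZAT12 differed by 1.62 ± 0.16. ZAT11 (2.06 ± 0.33) was not called in 4 of the 9 fits (adjusted p up to 0.015, without NAE 18:2 replicate 1), and ZAT6 (1.82 ± 0.28) was not called in 4 of the 9 fits (adjusted p up to 0.013, without NAE 18:2 replicate 1). Stress NAC factor genes were higher in 5 of 15 (33.3%), and in 2 to 3 without NAE 18:2 replicate 2 or 3 or NAE 18:3 replicate 1 or 2. NAC081 (ATAF2) went from 149, 79.3 and 133 to 375, 385 and 393 CPM (1.64 ± 0.20, adjusted p = 0.00088), and NAC102 differed by 1.3 ± 0.18. NAC002 (ATAF1) stood at 53.8 to 69.8 CPM under NAE 18:2 and 122 to 142 CPM under NAE 18:3 (1.04 ± 0.18), was not called in 5 of the 9 fits (adjusted p up to 0.017, without NAE 18:3 replicate 3), and is overlapped over 18.8% of its length by the opposite-strand gene AT1G04043. RD26 (NAC072), an ABA-responsive NAC gene, was not called (means of 11.8 and 24.3 CPM, log2 1.02, adjusted p = 0.019).

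ERF and DREB genes were higher in 8 of 54 (14.8%) and lower in 1 (1.85%), against 3.91% and 0.417% of all genes tested. Without DMSO replicate 2 or any one of the 6 NAE libraries, 2 to 5 were higher. None was lower without NAE 18:2 replicate 3 or any one NAE 18:3 library, and 2 were lower without DMSO replicate 3. ERF1, an integrator of ethylene and jasmonate responses, differed most, from 0.0727, 0.139 and 0.266 CPM to 2.37, 1.67 and 3.2 CPM (3.90 ± 0.46, adjusted p = 0.00069). CRF6, a cytokinin response factor gene, differed by 1.71 ± 0.32 and was not called in 6 of the 9 fits (adjusted p up to 0.027, without NAE 18:3 replicate 1).

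A list of chitin and immune receptors and linked signaling genes was higher in 10 of 33 tested members (30.3%, against 3.91% of all genes tested) and lower in none. Whichever cotyledon library was left out, 10 to 12 were called, but the fit to all 27 libraries called 1. BIK1, a receptor-associated cytoplasmic kinase gene, stood at 41.8, 39.1 and 44.1 CPM under NAE 18:2 and at 124, 135 and 137 CPM under NAE 18:3. Its log2 fold change was 1.63 ± 0.10 (adjusted p = 6.1e-05), and the DMSO libraries, at 37.8 to 46.8 CPM, overlapped those of NAE 18:2. LYK5 and LYK4, lysin-motif receptor kinase genes, differed by 1.34 ± 0.10 and 2.08 ± 0.24, the receptor-like protein gene RLP52 by 2.30 ± 0.22, the co-receptor gene SERK4 by 1.21 ± 0.11 and the MAP kinase gene MPK11 by 1.68 ± 0.23. CERK1, the chitin receptor kinase gene, stood at 17.7, 16.3 and 18.2 CPM under NAE 18:2 and 38.1, 34.8 and 33.3 CPM under NAE 18:3. Its groups did not overlap and its adjusted p was 0.00026, but its log2 difference of 0.99 lay just under the threshold. IOS1, a leucine-rich repeat kinase gene, was not called (log2 1.74, adjusted p = 0.019), with NAE 18:2 libraries at 29.9, 7.28 and 25.0 CPM.

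Calmodulin-like genes were higher in 3 of 12 members (25%, against 3.91% of all genes tested), and in none in the fit to all 27 libraries. TCH3, a touch-responsive calcium sensor gene, went from 87.6, 76.4 and 96.9 to 401, 381 and 392 CPM (2.14 ± 0.15, adjusted p = 9.4e-05). It is overlapped over 31.0% of its length by the opposite-strand gene AT2G41105. CML42 differed by 1.74 ± 0.24, and CML39 (AT1G76640) by 2.17 ± 0.40, which was not called in 5 of the 9 fits (adjusted p up to 0.025, without NAE 18:2 replicate 2).

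Cysteine-rich receptor-like kinases, a group formed after the values were seen, were higher in 12 of 31 members (38.7%, against 3.91% of all genes tested). The count was 6 to 7 without any one NAE 18:3 library and 1 in the fit to all 27 libraries. CRK11, whose upstream sequence is printed above, stood at 41.9, 28.1 and 40.1 CPM under NAE 18:2 and 156, 165 and 160 CPM under NAE 18:3 (2.1 ± 0.15, adjusted p = 9.8e-05), and CRK39 at 0.576 to 0.694 CPM under NAE 18:2 and 6.14 to 9.20 CPM under NAE 18:3 (3.50 ± 0.40). Also formed after the values were seen, disease resistance genes were higher in 8 of 85 (9.41%), among them AT1G66090 (1.83 ± 0.13) and AT3G04220 (2.43 ± 0.26). The fit to all 27 libraries called 1 of that group. VQ motif genes, whose proteins bind WRKY factors, were higher in 7 of 19 (36.8%), among them AT4G37710 (2.72 ± 0.38) and AT1G17147 (1.84 ± 0.24). Their count was 3 to 4 without DMSO replicate 2, NAE 18:2 replicate 1 or any one NAE 18:3 library. It was 1 in the fit to all 27 libraries.

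**Figure D3:**
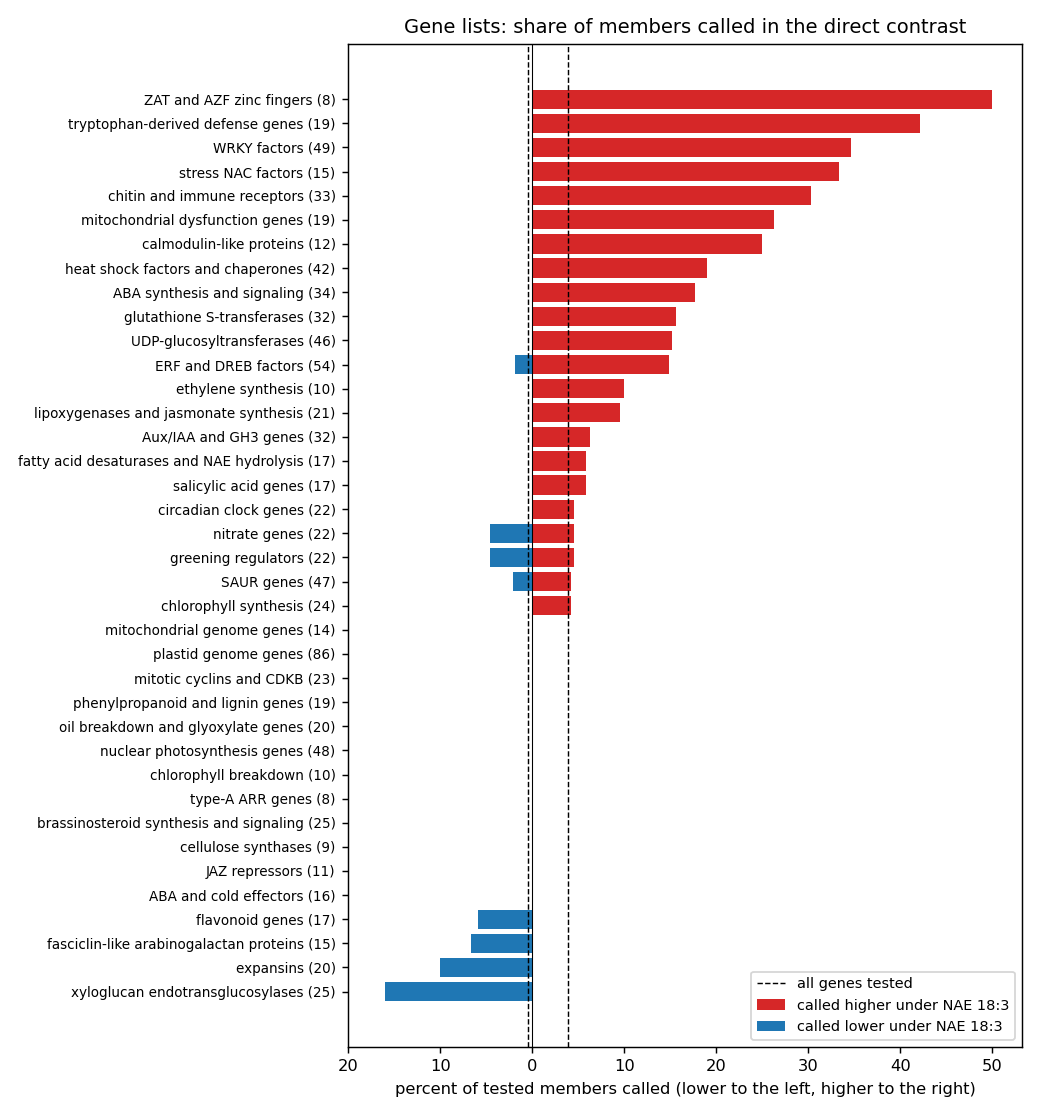
The bars give the percent of tested members of each of 38 gene lists called higher (red, to the right) or lower (blue, to the left) under NAE 18:3, with the number tested in parentheses. The dashed lines mark the 3.91% and 0.417% of all genes tested, and the bars of the ZAT, tryptophan-derived defense, WRKY and NAC lists reach farthest to the right.

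Genes of tryptophan-derived defense compounds, indole glucosinolates and camalexin, were higher in 8 of 19 members (42.1%, against 3.91% of all genes tested) and lower in none. Whichever cotyledon library was left out, 6 to 8 were called, and the fit to all 27 libraries called 6. IGMT2, an indole glucosinolate O-methyltransferase gene, stood at 3.05, 1.73 and 5.36 CPM under NAE 18:2 and 39.1, 29.7 and 31.8 CPM under NAE 18:3 (3.3 ± 0.42, adjusted p = 0.0010). The NAE 18:2 libraries overlapped the DMSO libraries, at 1.76 to 4.79 CPM. Its transcript and that of IGMT3 (AT1G21110) are 96.3% identical, so the division of reads between them is uncertain. CYP81F2, a P450 that hydroxylates indole glucosinolates, went from 5.53, 5.10 and 9.35 to 40.6, 32.9 and 44.1 CPM (2.53 ± 0.28, adjusted p = 0.00049), and CYP81F3 differed by 2.34 ± 0.29. IGMT1 differed by 2.74 ± 0.41 and was not called without NAE 18:3 replicate 2 (adjusted p = 0.012).

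Some genes of detoxification families were higher. Glutathione S-transferase genes were higher in 5 of 32 members (15.6%, against 3.91% of all genes tested). The count was 2 to 3 without NAE 18:3 replicate 1 or 2, and 3 in the fit to all 27 libraries. GSTU12 stood at 0.582, 0.659 and 0.798 CPM under NAE 18:2 and 9.87, 8.51 and 8.27 CPM under NAE 18:3 (3.68 ± 0.38, adjusted p = 0.00037), and GSTU11 differed by 2.61 ± 0.32. GSTU9 stood at 0.0933 to 0.375 CPM in DMSO, 7.11 to 19.4 CPM under NAE 18:2 and 57.6 to 75.9 CPM under NAE 18:3. Its groups were all separate (2.15 ± 0.33), and it was not called in 2 of the 9 fits (adjusted p up to 0.012, without NAE 18:3 replicate 2). UDP-glucosyltransferase genes were higher in 7 of 46 (15.2%), and in 1 in the fit to all 27 libraries. The count was 11 without DMSO replicate 3 and 4 without NAE 18:2 replicate 3. It was 1, 1 and 3 without NAE 18:3 replicate 1, 2 and 3, the last with 1 lower. UGT73B5 went from 32.8, 13.2 and 24.2 to 123.4, 115 and 93.7 CPM (2.21 ± 0.36), was not called in 3 of the 9 fits (adjusted p up to 0.016, without NAE 18:3 replicate 2), and is overlapped over 36.8% of its length by the same-strand gene AT2G15490.

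Cytochrome P450, MATE efflux and ABC transporter genes, grouped after the values were seen, were higher in 12 of 118, 7 of 41 and 9 of 92 members. These shares were 10.2%, 17.1% and 9.78%, against 3.91% of all genes tested. The fit to all 27 libraries called 4, 0 and 3 of them higher. The P450 count was 6 to 7 without NAE 18:3 replicate 1 or 2, with 2 lower genes with the replicate block and 1 without DMSO replicate 3, NAE 18:2 replicate 1 or 3 or NAE 18:3 replicate 3, and the MATE and ABC counts were 3 and 5 without NAE 18:2 replicate 3 or NAE 18:3 replicate 1 or 2. ABCC3, a vacuolar glutathione-conjugate pump gene, stood at 250, 143 and 193 CPM under NAE 18:2 and 824, 794 and 691 CPM under NAE 18:3 (1.95 ± 0.28, adjusted p = 0.0019). ABCB11 stood at 1.12 to 2.13 CPM in DMSO, 46.3, 23.1 and 43.0 CPM under NAE 18:2 and 210, 193 and 145 CPM under NAE 18:3 (2.25 ± 0.27, adjusted p = 0.00084). The MATE gene AT3G23550 differed by 2.88 ± 0.41. CYP81D8 had the same order as ABCB11, with means of 2.36, 63.4 and 383 CPM (2.56 ± 0.39), and was not called without NAE 18:3 replicate 1 (adjusted p = 0.0103).

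Genes of the mitochondrial dysfunction response, to which AOX1D belongs, were higher in 5 of 19 members, with a list median of 1.52. The share was 26.3%, against 3.91% of all genes tested, and the fit to all 27 libraries called 1. The count was 9 without DMSO replicate 3, 2 without NAE 18:3 replicate 2 and 3 without NAE 18:2 replicate 1 or 2 or NAE 18:3 replicate 1. OM66 (BCS1), an outer-membrane ATPase gene, went from 82.7, 47.8 and 79.9 to 287, 264 and 258 CPM (1.91 ± 0.20, adjusted p = 0.00037). NDB2, an alternative NAD(P)H dehydrogenase gene, differed by 1.77 ± 0.34 and was not called in 7 of the 9 fits (adjusted p up to 0.032, without NAE 18:3 replicate 2). TIM17-1, an inner-membrane translocase gene, differed by 2.52 ± 0.40 and was not called in 4 of the 9 fits (adjusted p up to 0.015, without NAE 18:3 replicate 2).

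Heat shock factors and chaperones were higher in 8 of 42 (19.0%, against 3.91% of all genes tested). The count was 13 without DMSO replicate 3, and none was called in the fit to all 27 libraries. HSP101, a disaggregating chaperone gene, stood at 23.3, 15.9 and 18.0 CPM under NAE 18:2 and 102, 115 and 128 CPM under NAE 18:3 (2.56 ± 0.25, adjusted p = 0.00033). The DMSO libraries, at 16.3 to 32.4 CPM, overlapped those of NAE 18:2. BAG6, a co-chaperone gene, differed by 2.26 ± 0.17 and HSF4 by 2.15 ± 0.31. HSFA2, a heat shock factor gene, differed by 2.61 ± 0.38 and was not called without NAE 18:2 replicate 3 (adjusted p = 0.011).

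Among hormone lists, ABA synthesis and signaling genes were higher in 6 of 34 members (17.6%, against 3.91% of all genes tested). The count was 3 and 2 without NAE 18:2 replicate 2 and NAE 18:3 replicate 2, and 2 in the fit to all 27 libraries. With the replicate number as a block, 5 were higher and 1 lower, and 1 was lower without NAE 18:2 replicate 1. NCED3, the dioxygenase of the committed step of ABA synthesis, stood at 3.2, 3.33 and 3.06 CPM under NAE 18:2 and 8.58, 11.1 and 10.1 CPM under NAE 18:3 (1.60 ± 0.14, adjusted p = 0.00021), with DMSO at 3.54 to 4.11 CPM. AAO3, the aldehyde oxidase of the last step, went from 21.1, 23.4 and 25.0 to 56.2, 63.2 and 49.4 CPM (1.25 ± 0.12, adjusted p = 0.00027), and is overlapped over 14.7% of its length by the opposite-strand gene AT2G27160. The phosphatase gene HAI2 differed by 1.94 ± 0.31 and was not called in 3 of the 9 fits (adjusted p up to 0.014, without NAE 18:3 replicate 1). ABI2, a phosphatase gene that restrains ABA signaling, differed by 1.09 ± 0.19 and was not called in 4 of the 9 fits (adjusted p up to 0.022, without NAE 18:3 replicate 2). MAPKKK18 differed by 1.29 ± 0.19 and was not called without NAE 18:3 replicate 2 (adjusted p = 0.013). ABI5, a bZIP factor gene, was not called (log2 0.46, adjusted p = 0.26), nor was any of 16 ABA and cold effector genes, whose median was 0.58, although 1 of these was higher without NAE 18:3 replicate 1.

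Jasmonate synthesis genes gave 2 of 21 calls, AOC1 and AOC3, which encode allene oxide cyclases. AOC1 differed by 1.64 ± 0.31 and was not called in 6 of the 9 fits (adjusted p up to 0.030, without NAE 18:2 replicate 2), and AOC3 differed by 1.42 ± 0.27 and was not called in 7 of the 9 fits (adjusted p up to 0.024, without NAE 18:3 replicate 2). The lipoxygenase gene LOX4 stood at 16.1, 62.9 and 27.3 CPM under NAE 18:2 and 22, 31.6 and 28 CPM under NAE 18:3, overlapping, and was not called (log2 -0.41, adjusted p = 0.50). No JAZ repressor gene of 11 was called. NPR4, a salicylic acid receptor gene, was the only call of 17 in its list, at 14.8, 10.6 and 13.2 CPM under NAE 18:2 and 30.6, 33.2 and 33.4 CPM under NAE 18:3 (1.3 ± 0.13, adjusted p = 0.00033). Its list had 3 higher genes without NAE 18:2 replicate 3 or NAE 18:3 replicate 1, and 2 without DMSO replicate 1 or 3, NAE 18:2 replicate 1 or 2 or NAE 18:3 replicate 3. ACS2, an ethylene synthesis gene, was the only call of 10 (1.70 ± 0.31) and was not called in 6 of the 9 fits (adjusted p up to 0.025, without NAE 18:3 replicate 1). With the replicate block or without DMSO replicate 3, 2 ethylene synthesis genes were higher, and 1 was lower without DMSO replicate 1 or 3. The auxin-conjugating enzyme genes GH3.2 (BRU6, 1.69 ± 0.32) and GH3.3 (1.04 ± 0.17) were the only calls of 32 Aux/IAA and GH3 genes, the first not called in 6 of the 9 fits (adjusted p up to 0.024, without NAE 18:3 replicate 1) and the second not called in 4 of the 9 fits (adjusted p up to 0.017, without NAE 18:3 replicate 2). 1 gene of that list was lower without NAE 18:2 replicate 3. The shares higher were 9.52% (jasmonate synthesis), 5.88% (salicylic acid), 10% (ethylene synthesis) and 6.25% (Aux/IAA and GH3), against 3.91% of all genes tested. The fit to all 27 libraries called 1 ethylene synthesis gene and no gene of the jasmonate synthesis, salicylic acid or Aux/IAA and GH3 lists. No brassinosteroid gene of 25 and no type-A ARR gene of 8 was called, while 1 brassinosteroid gene was higher without DMSO replicate 2.

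Cell wall genes were among those lower under NAE 18:3. EXL5, of the EXORDIUM family that promotes cell expansion, stood at 122.7, 113 and 89.6 CPM under NAE 18:2 and 29.1, 25.9 and 28.3 CPM under NAE 18:3. The groups did not overlap, with a log2 fold change of -2.0 ± 0.16 (adjusted p = 0.00015). PHI-1 of the same family differed by -1.84 ± 0.31 and was not called in 4 of the 9 fits (adjusted p up to 0.018, without NAE 18:3 replicate 3), whereas EXL4 was higher, at 65.0 to 90.1 CPM under NAE 18:2 and 228 to 260 CPM under NAE 18:3 (1.61 ± 0.22). AGP17, an arabinogalactan protein gene, went from 67.7, 64.4 and 54.5 to 15.9, 18.2 and 17.5 CPM (-1.89 ± 0.26, adjusted p = 0.0016), and AGP7 differed by -1.33 ± 0.17. Arabinogalactan protein genes, grouped after the values were seen, were lower in 4 of 24 (16.7%) and higher in 2 (8.33%), against 0.417% and 3.91% of all genes tested. Without DMSO replicate 2, NAE 18:2 replicate 2 or any one NAE 18:3 library, 2 were lower. Without DMSO replicate 1 or 2 or any one NAE library, 0 or 1 was higher. The fit to all 27 libraries called none in either direction.

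Xyloglucan endotransglucosylase genes, whose enzymes cut and rejoin wall xyloglucan, were lower in 4 of 25 (16%, against 0.417% of all genes tested) and higher in none. Without NAE 18:2 replicate 1 or 2 or any one NAE 18:3 library, 1 to 2 were lower. Without DMSO replicate 3, 1 was higher. The fit to all 27 libraries called 1 lower. XTH9 stood at 491, 527 and 440 CPM under NAE 18:2 and 206, 135 and 197 CPM under NAE 18:3 (-1.47 ± 0.15, adjusted p = 0.00035), with DMSO between them at 363 to 387 CPM. XTH33 differed by -1.90 ± 0.31 and was not called in 4 of the 9 fits (adjusted p up to 0.018, without NAE 18:3 replicate 1), XTH6 by -1.73 ± 0.30 and was not called in 5 of the 9 fits (adjusted p up to 0.022, without NAE 18:3 replicate 1), and XTH8 by -1.14 ± 0.23 and was not called in 8 of the 9 fits (adjusted p up to 0.040, without NAE 18:3 replicate 2).

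Expansin genes were lower in 2 of 20 (10%, against 0.417% of all genes tested). The count was 1 without DMSO replicate 1 or 2, NAE 18:2 replicate 1 or any one NAE 18:3 library. None was called in the fit to all 27 libraries. EXLA2 went from 22.8, 29.0 and 16.9 to 6.88, 7.12 and 7.83 CPM (-1.68 ± 0.17, adjusted p = 0.00037). EXLA1 differed by -1.89 ± 0.36 and was not called in 6 of the 9 fits (adjusted p up to 0.035, without NAE 18:3 replicate 2). No cellulose synthase gene of 9 was called, and CESA5 stood at means of 192 and 117 CPM (log2 -0.75, adjusted p = 0.019). FLA15 was the only call of 15 fasciclin-like arabinogalactan protein genes (-1.11 ± 0.22), was not called in 6 of the 9 fits (adjusted p up to 0.037, without NAE 18:3 replicate 1), and was not called with the replicate number as a block (adjusted p = 0.0103). The list median was -0.65, and the fit to all 27 libraries called no member. The median over 47 SAUR genes was -0.66 on the log2 scale, with 14 of them positive. Of these genes, 1 was lower (2.13%) and 2 were higher (4.26%), against 0.417% and 3.91% of all genes tested. The lower one, SAUR78 (AT1G72430), went from 76.8, 105 and 76.3 to 26.7, 31.4 and 28.6 CPM (-1.60 ± 0.19, adjusted p = 0.00064). The higher ones, SAUR74 (AT3G12955) and SAUR59 (AT3G60690), were not called in 4 of the 9 fits (adjusted p up to 0.015, without NAE 18:3 replicate 1) and not called in 5 of the 9 fits (adjusted p up to 0.017, without NAE 18:3 replicate 2). The SAUR counts were 3, 4 and 2 lower without DMSO replicate 1 or 3 or NAE 18:2 replicate 1, and 2 lower with the replicate block. They were 0 or 1 higher without any one of the 6 NAE libraries, and DESeq2 called 5 lower and 4 higher. The fit to all 27 libraries called 1 SAUR gene higher and none lower.

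AT4G29905, an uncharacterized gene, went from 18.4, 47.1 and 36.5 to 5.85, 4.81 and 10.1 CPM (-2.33 ± 0.37) and was not called in 2 of the 9 fits (adjusted p up to 0.017, without NAE 18:3 replicate 1). OCT3, an organic cation transporter gene, stood at 10.7, 26.9 and 16.3 CPM under NAE 18:2 and 6.92, 4.61 and 6.02 CPM under NAE 18:3 (-1.65 ± 0.30), was not called in 5 of the 9 fits (adjusted p up to 0.031, without NAE 18:3 replicate 2), and was not called with the replicate block (adjusted p = 0.011).

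Greening regulators gave 1 call in each direction of 22 (4.55% each), where 3.91% of all genes tested were higher and 0.417% lower. The fit to all 27 libraries called 1 of them higher and none lower. GNC, a GATA factor gene that promotes greening, stood at 48.2, 56.1 and 46.9 CPM under NAE 18:2 and 20.1, 18.7 and 17.0 CPM under NAE 18:3 (-1.47 ± 0.18, adjusted p = 0.00076). Its paralog CGA1 (means of 23 and 8.12 CPM) was not called at an adjusted p of 0.016, but was with the replicate block (adjusted p = 0.0065), and the list had 2 lower genes without DMSO replicate 1 or 3. GLK2 had means of 145 and 86.2 CPM and was not called (adjusted p = 0.012). PIF3, a phytochrome-interacting factor gene, was higher under NAE 18:3, at 42.3, 37.7 and 52.2 CPM under NAE 18:2 and 77.4, 87.3 and 108 CPM under NAE 18:3 (1.02 ± 0.15, adjusted p = 0.0020), a call lost without NAE 18:2 replicate 2 or NAE 18:3 replicate 3, with DMSO at 71.5 to 84.5 CPM. HEMA2, a glutamyl-tRNA reductase gene, was the only call of 24 in chlorophyll synthesis (4.17%), with a log2 fold change of 1.16 ± 0.17. It was not called without NAE 18:3 replicate 2 (adjusted p = 0.012). No gene was called among 48 nuclear photosynthesis genes, 10 of chlorophyll breakdown, 20 of oil breakdown, 19 of phenylpropanoid synthesis or 23 mitotic cyclins and CDKB genes. Of the phenylpropanoid genes, 1 was higher with the replicate block, with DESeq2, with the 6 NAE libraries only and without DMSO replicate 3, and 1 oil breakdown gene was higher without DMSO replicate 3.

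Single calls or a pair of calls came from 4 further lists. Shares higher were 4.55% of clock, 4.55% of nitrate and 5.88% of desaturase and NAE hydrolysis genes. Shares lower were 4.55% of nitrate and 5.88% of flavonoid genes. Over all genes tested, 3.91% were higher and 0.417% lower. The fit to all 27 libraries called no member of these lists. MYB111, a flavonol regulator gene, was the only call of 17 flavonoid genes (-1.57 ± 0.24) and was not called in 2 of the 9 fits (adjusted p up to 0.014, without NAE 18:3 replicate 2). RVE1, a MYB-like factor gene, was the only call of 22 clock genes (1.79 ± 0.32) and was not called in 5 of the 9 fits (adjusted p up to 0.025, without NAE 18:3 replicate 2). In the other direction, 1 clock gene was lower with the replicate block or without NAE 18:2 replicate 2, and 2 with DESeq2. Of 22 nitrate genes, LBD39, a repressor of nitrate responses, was lower (-1.15 ± 0.17) and was not called without NAE 18:3 replicate 2 (adjusted p = 0.012), and ASN1, an asparagine synthase gene, was higher (2.09 ± 0.36) and was not called in 4 of the 9 fits (adjusted p up to 0.018, without NAE 18:3 replicate 2). The nitrate list had 2 higher genes with the replicate block, without DMSO replicate 3 or without NAE 18:2 replicate 3. PLDGAMMA1, a phospholipase D gene, was the only call of 17 in the list of desaturases and NAE hydrolysis, at 24.8, 17.4 and 21.1 CPM under NAE 18:2 and 49.3, 46.5 and 50.2 CPM under NAE 18:3 (1.17 ± 0.12, adjusted p = 0.00037). In that list 1 gene was lower without NAE 18:2 replicate 3 or NAE 18:3 replicate 1.

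Genes of the plastid genome had a median difference of -0.57 over 86 tested members, and those of the mitochondrial genome of -0.66 over 14. No member of either list was called, while the replicate block called 3 and 2 lower. Counts of the plastid genome made up 0.0560 to 0.0876% of all counts in the NAE 18:2 libraries, 0.0318 to 0.0556% in the NAE 18:3 libraries and 0.0349 to 0.101% in DMSO. The part of library preparation in this difference was not tested.

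Markers of other tissues were compared in the same libraries. The summed level of 10 vasculature markers was 207 to 213 CPM under NAE 18:2 and 264 to 285 CPM under NAE 18:3, and the groups did not overlap. That of 11 wound and dissection genes was 331 to 501 and 681 to 915 CPM. In DMSO these sums were 150 to 204 and 361 to 540 CPM. The members of the wound list did not move together: their median log2 difference was 0.09, positive in 6 of 11. The larger sum came mostly from AOC1 (means of 91.1 and 290 CPM), RNS1 (103 and 249 CPM) and WR3 (38.9 and 84.2 CPM). Of the jasmonate-responsive genes in the list, LOX3, JAZ5, JAZ7, JAZ8 and ORA47 had lower means under NAE 18:3. JAZ7 had means of 3.70 and 0.810 CPM and JAZ8 of 4.78 and 1.92 CPM. JAZ10 (20.9 and 22.7 CPM), VSP2 (37.8 and 45.3 CPM) and VSP1 (2.34 and 3.29 CPM) had higher means. SUC2, the phloem sucrose transporter gene, stood at 44.5, 48.2 and 52.7 CPM under NAE 18:2 and 76.8, 75.8 and 83.6 CPM under NAE 18:3 and was not called (log2 0.67, adjusted p = 0.0033). AOC1 was the only wound gene called. The list had 2 higher genes with the replicate block, 2 without DMSO replicate 3 or NAE 18:2 replicate 3, 0 without DMSO replicate 2, NAE 18:2 replicate 1 or 2 or any one NAE 18:3 library, and 3 with DESeq2. Guard cell markers summed to 107 to 129 and 96.6 to 110 CPM and epidermis and cuticle markers to 2334 to 2385 and 1843 to 2672 CPM. The part of tissue make-up and of wounding in the differences above was not tested.

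WOX5, which marks the root quiescent center, was the only one of 13 tested root markers called. It stood at 2.62, 1.77 and 3.06 CPM under NAE 18:2 and 15.5, 19.6 and 22.2 CPM under NAE 18:3 (2.92 ± 0.31, adjusted p = 0.00047). The summed level of all 30 root markers overlapped, at 2956 to 3422 and 2259 to 3744 CPM, most of it from the beta-glucosidase gene PYK10, at means of 3090 and 3000 CPM.

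Against DMSO, the genes higher under NAE 18:3 stood at a median log2 fold change of 0.41 under NAE 18:2 and 2.11 under NAE 18:3, where the medians over all genes tested were -0.01 and -0.02. The NAE 18:2 mean of 568 of these 760 genes lay between those of DMSO and NAE 18:3, and 359 were within 0.5 of DMSO on the log2 scale under NAE 18:2. Over all 19444 genes tested, these counts were 8729 and 15955. Over the lower genes the medians were -0.12 under NAE 18:2 and -1.42 under NAE 18:3. Both comparisons use the same 3 DMSO libraries. The higher and lower genes were chosen by the difference between the NAE groups, so the gap between their 2 medians follows from that choice. The counts of these genes against DMSO are shaped by it too, and all are a description. In all, 120 genes were higher and 21 lower than DMSO under NAE 18:2 (0.617% and 0.108%), and 1231 higher and 484 lower under NAE 18:3 (6.33% and 2.49%).

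**Figure D4:**
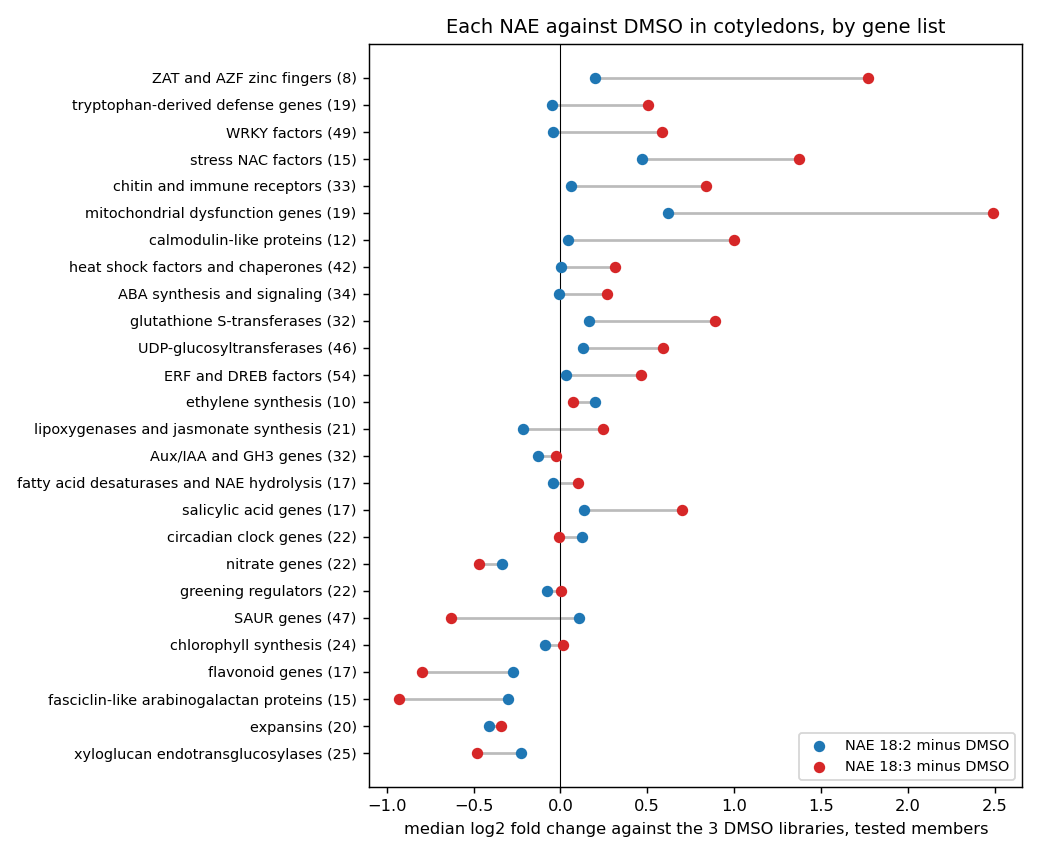
For the 26 lists with a called member, the median log2 fold change against DMSO is shown for NAE 18:2 (blue) and NAE 18:3 (red), with the number of tested members in parentheses. The mitochondrial dysfunction list is farthest from 0 under NAE 18:3, at 2.49 against 0.62 under NAE 18:2, and both treatments are set against the same 3 DMSO libraries.

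Of the 81 lower genes, 9 were more than 2-fold above DMSO under NAE 18:2, as were 657 of all 19444 genes tested. All 9 were within 0.5 of DMSO on the log2 scale under NAE 18:3, as were 13610 of all genes tested. These 9 were chosen as lower under NAE 18:3 than under NAE 18:2 and high under NAE 18:2. Their levels near DMSO under NAE 18:3 are shaped by that choice and are a description. AT3G27220, a kelch repeat protein gene, stood at 9.55, 9.29 and 7.58 CPM in DMSO, 24.4, 48.2 and 41.5 CPM under NAE 18:2 and 10.1, 7.92 and 10.6 CPM under NAE 18:3 (-2.02 ± 0.24, adjusted p = 0.00073). The NAE 18:2 libraries lay above all others, replicate 1 the lowest of them. AT5G66985 (-2.29 ± 0.37) was not called in 3 of the 9 fits (adjusted p up to 0.021, without NAE 18:3 replicate 2), AT3G10040 (-1.64 ± 0.29) was not called in 5 of the 9 fits (adjusted p up to 0.028, without NAE 18:3 replicate 2), and AT4G33560 (-1.61 ± 0.32) was not called in 7 of the 9 fits (adjusted p up to 0.046, without NAE 18:3 replicate 2). AT4G33560 was not called with the replicate block (adjusted p = 0.016), nor was AT1G12805 (-2.83 ± 0.55, block adjusted p = 0.016), which was not called in 7 of the 9 fits (adjusted p up to 0.040, without NAE 18:3 replicate 2). These 5 genes are the called members of a list of 18 low-oxygen genes drawn up after their values were seen, so its count carries no weight of its own. The count was 3 with the replicate block, where 1 member was higher, and 1 to 3 without DMSO replicate 2, NAE 18:2 replicate 2 or 3 or any one NAE 18:3 library. None was called in the fit to all 27 libraries. The fermentation genes ADH1 and PDC1 (AT4G33070) were not called (log2 0.28 and -0.31, adjusted p = 0.53 and 0.74). Of the 18 members, 6 had a positive log2 fold change. Among these, ERF71 had means of 40.5 CPM under NAE 18:2 and 164 CPM under NAE 18:3 (log2 1.99). ERF71 was not called (adjusted p = 0.013) but was called higher with the replicate block.

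The same contrast was made in the root libraries. There 384 of 20138 tested genes were higher (1.91%) and 3084 lower (15.3%) under NAE 18:3. Of the 760 genes higher in cotyledons, 732 were tested in roots, with a median log2 fold change of -0.85. Of the 760, 242 were lower in roots (31.8%) and 37 higher (4.87% of the cotyledon list and 9.64% of the root list), where the shares over all genes tested in cotyledons were 11.8% and 1.74%. Of the 81 lower genes, 68 were tested in roots, 24 were lower there and 2 higher.

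The difference between organs, cotyledons minus roots, was tested as an interaction in one fit to all 27 libraries. It was positive for 460 of the 760 higher genes (60.5%) and for 2633 of 21643 genes in all (12.2%), and negative for 8 of the 81 lower genes and 1410 in all (6.51%). Because the 760 and 81 genes were chosen by the cotyledon contrast, which is a term of the organ difference, these shares are a description. In roots, the summed vasculature markers were 175 to 270 CPM under NAE 18:2 and 39.4 to 40.8 CPM under NAE 18:3, and the root markers 3263 to 3777 and 1204 to 1530 CPM. The part of root tissue make-up in the organ difference was not tested.

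**Figure D5:**
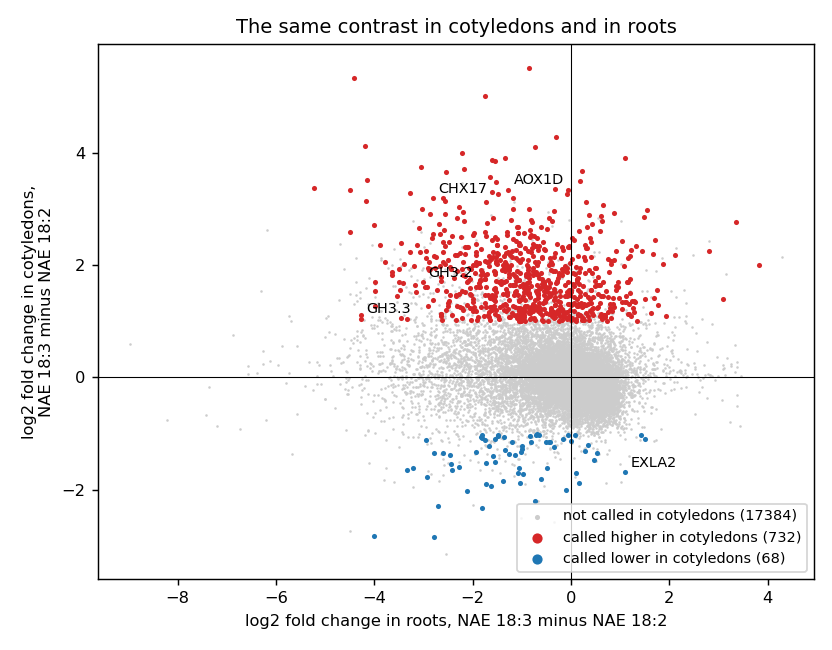
The log2 fold change of NAE 18:3 minus NAE 18:2 in cotyledons (vertical axis) is plotted against the same contrast in roots (horizontal axis) for the genes tested in both. The 732 genes called higher in cotyledons (red) have a median of -0.85 on the root axis, and the 68 called lower (blue) have a median of -1.17.

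CHX17 stood at 75.3, 75.4 and 76.0 CPM in the NAE 18:2 root libraries and 2.84, 26.2 and 5.63 CPM in the NAE 18:3 root libraries, the reverse of its order in cotyledons (organ difference 5.92 on the log2 scale, adjusted p = 4.7e-05). ACA2 went from 532, 289 and 508 to 18.7, 89.0 and 40.2 CPM in roots (organ difference 6.47, adjusted p = 1.4e-05). NAE 18:3 root replicate 2 was the highest of its group for both genes. NCED3 differed by -2.96 in roots and 1.60 in cotyledons (organ difference 4.47, adjusted p = 2.8e-06), and LYK4 by -2.51 and 2.08 (organ difference 4.49, adjusted p = 2.8e-06). LYK5, AAO3 and MAPKKK18 did not pass the test of the organ difference (adjusted p = 0.89, 0.57 and 0.26).

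In whole seedlings no gene was called in either direction among 20911 (0% each, edgeR quasi-likelihood test), with 222 higher and 468 lower at an unadjusted p under 0.05. The 759 tested genes of the cotyledon higher list had a median log2 fold change of 0.23 there, positive in 652, against 0.03 over all genes tested in cotyledons, positive in 10669 of 19322.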

How the data were processed

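RNA of cotyledons, roots and whole seedlings was prepared by the authors with poly(A) enrichment and the TruSeq Stranded mRNA kit and sequenced on a NextSeq 500. Per the study's methods, reads were checked with FastQC, trimmed with Trimmomatic and aligned with STAR to TAIR10. The counting program and its strand setting are not given in the sources used here. The authors deposited a table of raw counts per gene for all 27 libraries, which was used here, and a table of normalized values, which was not. The submitters' processing notes name STAR and DESeq2. All 27 columns matched a label, and 0 were left out. Total counts were 23932702 to 31790342 per cotyledon library.

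Counts were tested with edgeR 4.0.16 in R 4.3.3 (TMM normalization, filterByExpr, robust quasi-likelihood test, two-sided) on the 9 cotyledon libraries, with a gene called at a Benjamini-Hochberg adjusted p under 0.01 and a log2 fold change beyond 1. Roots and seedlings were fitted likewise within their organ, and the organ difference as an interaction over all 27 libraries. CPM values use TMM-scaled library sizes. On simulated counts with 200 changed genes among 19444, the cotyledon test called 44%, 90%, 90% and 98% of those changed by 1, 1.5, 2 and 3 on the log2 scale and 0 unchanged genes. The organ difference test on 21643 genes called 10%, 44%, 64% and 84%. The changed genes were drawn only from those above a minimum mean count, as many raised as lowered, so these shares do not cover genes of low counts.

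The members of the gene lists, the groups and the named genes were chosen with earlier results of these data known. Named genes were, in each direction, the 12 called genes that changed most among those with non-overlapping groups and 5 CPM or more on average. To these came up to 4 called genes of each list and, where fewer than 2 were called, its 2 most abundant other members. Genes the study names for cotyledons and 5 genes in each direction by organ difference were also named. Lists of cysteine-rich kinases, disease resistance, VQ, P450, MATE, ABC, arabinogalactan and low-oxygen genes were formed after the values were seen.

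Same-numbered NAE 18:2 and NAE 18:3 cotyledon libraries deviated together (correlations of 0.14, 0.19 and 0.19 for replicates 1, 2 and 3, all over 0.1). No label states a shared batch, so this is only a hint in the data. The main test held treatment only and did not pair the libraries. The numbers were used as pairs only in the alternative with a replicate block. Of 32833 gene identifiers, 32548 matched RefSeq TAIR10.1 and 10804 had a symbol there. Gene starts and the bases from 250 before to 50 after them came from that build. Transcripts at least 95% identical over at least 50% of their length (BLAST 2.17.0) were taken as near copies.

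Alternatives were RLE and upper quartile normalization, no low-count filter, DESeq2 1.42.0, a replicate block, other sets of libraries, an adjusted p under 0.05 and leaving out each replicate.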

Additional observations from a re-analysis of the deposited data

Results flagged for a closer look

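The difference between organs, the log2 fold change of NAE 18:3 minus NAE 18:2 in cotyledons less that in roots, was beyond 1 at an adjusted p under 0.01 (edgeR, interaction over all 27 libraries) for 21 of the genes named for their change in cotyledons or for this difference. These genes were chosen by this difference or by the cotyledon contrast, which is a term of it, so their number is a description. Over all 21643 genes tested, 12.2% were more positive and 6.51% more negative in cotyledons at the same thresholds. Genes named by other rules, such as NCED3 and LYK4 above, also passed and are not among the 21.

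Genes more positive in cotyledons were AT1G51890, a leucine-rich repeat kinase gene (8.52), AT2G45220, a pectin methylesterase gene (7.57), the MATE gene AT2G04070 (6.99), AT3G25190 (6.72), ACA2 (6.47) and CHX17 (5.92). The same held for AT2G36780 (5.66), LECRKA4.2 (5.59), IGMT2 (4.81), AOX1D (4.53), AT1G05675 (4.29), AT2G36770 (4.08), AT2G31945 (3.26) and SIS (2.73). AT2G45220 had no more than 3 counts in any NAE 18:2 cotyledon library, and against that floor it was at least 9.41-fold higher under NAE 18:3, a call that was lost without NAE 18:3 replicate 2 (adjusted p = 0.0104). AT2G04070 and AT3G25190 were not called in cotyledons. MLO15 had a fitted organ difference of 7.63, but it did not pass the low-count filter in cotyledons, where it stood at 0 to 0.0443 CPM under NAE 18:2 and 0.303 to 0.358 CPM under NAE 18:3. AT1G51890 stood at 0.104 to 0.177 CPM under NAE 18:2 in cotyledons and at 0.449 to 1.53 CPM under NAE 18:3 in roots. For genes so close to 0 in a group, MLO15, AT2G45220 and AT1G51890 among them, the fitted difference depends on the prior count and is no measure of size.

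Genes more negative in cotyledons were the thionin gene THI2.2 (-4.49), CCB3 (-4.06), ERF13 (-3.98), AT1G78995 (-3.75), AT5G47610 (-3.56) and EXLA2 (-2.88). Among these, EXLA2 was called in cotyledons, and ERF13 was not (log2 -0.51, adjusted p = 0.26) but was higher in roots. THI2.2, CCB3, AT1G78995 and AT5G47610 did not pass the low-count filter in roots, and the same holds for their fitted differences. The summed cotyledon and leaf markers were 88.0 to 920 CPM in the NAE 18:3 root libraries, with replicate 3 the highest, and 96.9 to 127 CPM in the NAE 18:2 root libraries. Their part in these differences was not tested.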

How the results depend on the processing

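The cotyledon contrast called 760 genes higher and 81 lower. Leaving out each replicate in turn gave 425 to 907 higher and 21 to 116 lower genes, the lowest counts without NAE 18:3 replicate 2 and the highest without DMSO replicate 3. One fit to all 27 libraries gave 171 higher and 6 lower genes, DESeq2 977 and 148, and an adjusted p under 0.05 gave 1080 and 193. The remaining alternatives stayed within 1.5 times of the counts: RLE normalization (761 and 80), upper quartile normalization (712 and 106, with the median of all genes at -0.06 in place of -0.01), no low-count filter (737 and 73) and the 6 NAE libraries only (818 and 85).

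With the replicate number as a block, 830 genes were higher and 92 lower, of which 732 and 67 were also called without it. Of 130 named genes called, 6 were not called with the block, namely FLA15, AT4G33560, OCT3 and AT1G12805, whose values are given above, AT5G45000 (adjusted p = 0.014) and AGP4 (adjusted p = 0.013). Of the named genes not called, ERF71, WR3, ATMG01390, ATMG00020 and CGA1 were called with the block (adjusted p = 0.0074, 0.0012, 0.0049, 0.0039 and 0.0065), and the block changed no other call of a named gene. The block with the 6 NAE libraries only, chosen after seeing the data, gave 807 and 96. In roots the same-numbered NAE libraries correlated at -0.15, -0.10 and 0.063, so that the numbers pair no samples there. For the organ difference the block gave 2550 higher and 1375 lower genes in place of 2633 and 1410, and leaving out each replicate gave 2050 to 2824 and 1117 to 1769.

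None of the 130 called named genes changed direction under any alternative. All 130 kept their call under RLE normalization and DESeq2, 31 under the fit to all 27 libraries, 118 with no filter, 114 with the 6 NAE libraries only and 65 in all 9 fits that left out 1 cotyledon library. Of 80 named genes not called, 15 were called under some alternative. The causes were not tested.

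Each group held 3 libraries, and an uncalled gene is not shown to be unchanged. In the simulated data, whose changed genes left out those of low mean count, 44% of genes changed by 1 on the log2 scale were called. That change is the fold threshold itself, and 90% of those changed by 1.5 were called. Low counts limit genes such as ERF1 and WRKY63. The doses and the compounds cannot be separated, and the treatment time differs between the sources.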

Other observations

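Some genes called higher under NAE 18:3 in cotyledons lay next to each other. There were 13 runs of at least 3 tested genes in a row along a chromosome (TAIR10.1) that were all called higher. On chromosome 1, the 4 indole glucosinolate O-methyltransferase genes IGMT1, IGMT3, IGMT2 and IGMT4 lay between 7386762 and 7400736, and the wall-associated kinase-like genes WAKL7, WAKL6 and WAKL2 between 5516259 and 5528212. On chromosome 4, the receptor kinase genes RK3, B120 and CRK28 lay between 11388827 and 11402180. IGMT2 and IGMT3 are near-identical copies, so their counts are not independent. No test of clustering was made.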
